A study of Mus musculus with 12 samples.

Results

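Condensins are ring-shaped protein complexes that fold chromatin into loops and compact the chromosomes of dividing cells. Condensin I and condensin II share an ATPase core of SMC2 and SMC4 and differ in their other subunits. Condensin II is in the nucleus throughout interphase and begins compaction in prophase, whereas condensin I reaches the chromosomes after the nuclear envelope breaks down. The embryonic kidney grows from dividing progenitors, so transcripts of both complexes are found in it. The genes described here are the 8 that encode these subunits. They are *Smc2* and *Smc4* of the core, *Ncapd2*, *Ncapg* and *Ncaph* of condensin I, and *Ncapd3*, *Ncapg2* and *Ncaph2* of condensin II. They were chosen from the measured ratio of null over WT kidneys of *Ncapg2*, together with the other subunits of its complexes, with the values of these data known.

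Probes were assigned to these genes through the transcript accession that the array files give for each non-control probe. This found 12 of 41174 probes, for 7 of the 8 genes (of 17305 genes with a probe). *Ncaph2* was not analysed here, since no probe matched it. Of the 12 probes, 9 (6 genes) were well above background by the scanner's flag in the null or the wild-type (WT) channel on at least 6 of 12 arrays and entered the test of 22986 probes. The probes that did not were *Ncapd3* A_51_P431669, with 1 null and 3 WT channels of 12 well above background, and the second *Ncapg* probe A_52_P324584 and the *Smc2* probe A_52_P243388, each with 0 of 12 in either genotype. *Ncapg2* was therefore the only subunit particular to condensin II that could be followed.

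Kidneys of embryonic day 14.5 came from matings of BdkrB2 heterozygous mice on a C57BL/6 background. The compared embryos were BdkrB2 null, lacking the bradykinin B2 receptor, or BdkrB2 WT, and all were carried by mothers fed a diet with 5% sodium, so no group on ordinary salt was compared. RNA of the 2 genotypes was hybridised together on 12 two-colour arrays. Null RNA carried Cy5 in the 3 null/WT replicates and Cy3 in the 3 WT/null replicates, and each of the 6 replicates had 2 arrays. The labels call the replicates biological and do not say whether a sample held 1 embryo or several, nor the sex of the embryos. If the 2 orientations of a replicate number were the same RNA, only 3 pairs are independent. The orientations of numbers 1, 2 and 3 deviated together (correlations of 0.587, 0.517 and 0.413). SEs and p-values that count 6 replicates may therefore be too small. In whole kidneys, a lower or higher share of cells that make a transcript and a change in its amount per cell cannot be told apart.

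Both arrays of each orientation of a replicate number lay on 1 slide, which gave 3 slides of 4 arrays. The SD of the log2 ratios was 0.38 on the first array of WT/null replicate 3 and 0.16 to 0.26 on the other 11. Of 8 embryonic kidney markers, 7 were well above background in all channels of both genotypes, and *Ret* in 5 null and 3 WT channels of 12. The *Bdkrb2* probe passed the scanner's background flag in 0 null channels and in 1 WT channel and so checks no label. The sex-linked transcripts differed by slide. *Xist* was well above background in 12 null and 4 WT channels, the latter all on slide 1, and the Y-linked *Ddx3y*, *Kdm5d* and *Eif2s3y* in 0 null and 8 WT channels, all on slides 2 and 3.

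The reference sequence just upstream of *Ncapg2* is shown beside that of *Ncapg*, because these genes encode the corresponding HEAT-repeat subunits of the condensins and their transcripts gave unlike values below. Both stretches are from the RefSeq promoter table (GRCm38.p6), run 5′ to 3′ on the plus strand and end at the base before the gene's first annotated start. They span chr12:116405186-116405350 and chr5:45669675-45669890. Capitals mark matches to the letters searched.
Ncapg2: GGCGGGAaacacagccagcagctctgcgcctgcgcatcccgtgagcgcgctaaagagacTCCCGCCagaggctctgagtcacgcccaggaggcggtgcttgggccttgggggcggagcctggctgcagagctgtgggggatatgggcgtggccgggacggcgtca
Ncapg: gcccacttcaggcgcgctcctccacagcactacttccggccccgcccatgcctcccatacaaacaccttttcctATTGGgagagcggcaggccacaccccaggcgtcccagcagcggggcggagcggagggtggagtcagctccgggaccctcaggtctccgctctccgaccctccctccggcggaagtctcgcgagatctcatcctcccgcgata

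Promoters of mitotic genes often hold CCAAT boxes, E2F sites and the cell cycle homology region (CHR). Each was searched as plain letters on both strands of the table's 300-base windows, which run past the start site and so are longer than the stretches shown. The letters do not overlap one another. Windows were found for 7 of the 8 genes. TTTGAA, the CHR, was in the windows of 5 (*Ncapg2*, *Ncapd3*, *Ncapg*, *Ncapd2* and *Smc2*), against 17.9% of all 32851 windows. CCAAT was in those of 3 (*Ncapg*, *Ncapd2* and *Smc2*), against 37.4% of all. GGCGGGA, an E2F-like core, was in those of 2 (*Ncapg2* and *Ncaph2*), against 11.3% of all. In the stretch shown, *Ncapg2* had 2 matches to the E2F-like core, one on each strand, and *Ncapg* had 1 match to CCAAT on the reverse strand. A match says only that these letters are present.

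*Ncapg2*, a HEAT-repeat subunit of condensin II, was brighter in null than in WT kidneys on every array. Its normalized intensity in the WT/null replicates 1, 2 and 3 was 1625, 1640 and 1407 in null against 376, 363 and 301 in WT. In the null/WT replicates it was 1816, 1912 and 1747 in null against 369, 401 and 288 in WT. The genotypes did not overlap: over the 12 arrays, null channels lay between 1397 and 2008 (median 1706) and WT channels between 282 and 424 (median 362). The 12 channels of each genotype all passed the background flag and 0 were saturated, so the ratio was measured on both sides.

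As log2 ratios of null over WT after loess normalization, *Ncapg2* stood at 2.11, 2.18 and 2.22 in WT/null replicates 1, 2 and 3 and at 2.30, 2.25 and 2.60 in null/WT replicates 1, 2 and 3. The mean was 2.28 ± 0.17 (SD, n = 6), a 4.85-fold difference. The highest value was that of null/WT replicate 3, and the other 5 spanned 2.11 to 2.30. Its gap to them was 0.615 of the range, which fell just short of passing Dixon's test. That test takes the 6 values as independent, which they may not be, so whether this replicate stands apart is not decided. The single arrays ranged from 1.94 to 2.68, and the SD between the 2 arrays of a replicate was 0.14, close to the SD between replicates. Since the genes were chosen from this difference, it is a description and has no test.

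The value of *Ncapg2* was alike on the 3 slides, at 2.20, 2.21 and 2.41. On slide 1 *Xist* was well above background in both genotypes and the Y-linked transcripts in neither, whereas on slides 2 and 3 these transcripts differed between the genotypes. Transcripts of other tissues also varied by slide. The median log2 ratio of the skeletal muscle genes *Acta1*, *Myog* and *Tnnc2* was 0.14, 0.48 and 2.29 on slides 1, 2 and 3, and that of the liver genes *Afp* and *Alb* was -0.05, 0.10 and 0.87. The cartilage collagen gene *Col2a1* stood at 0.34, 0.09 and -0.55, and the median of the embryonic globin genes *Hbb-y* and *Hba-x* at -0.42, 0.11 and 0.13. The adrenal gene *Star* lay between -0.14 and 0.00, and the chromaffin genes *Th* and *Dbh* were well above background in 0 channels of either genotype. The part of these transcripts in the *Ncapg2* values was not tested. Without WT/null replicate 3, which holds the array that stood apart, *Ncapg2* was at 2.26.

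**Figure D1:**
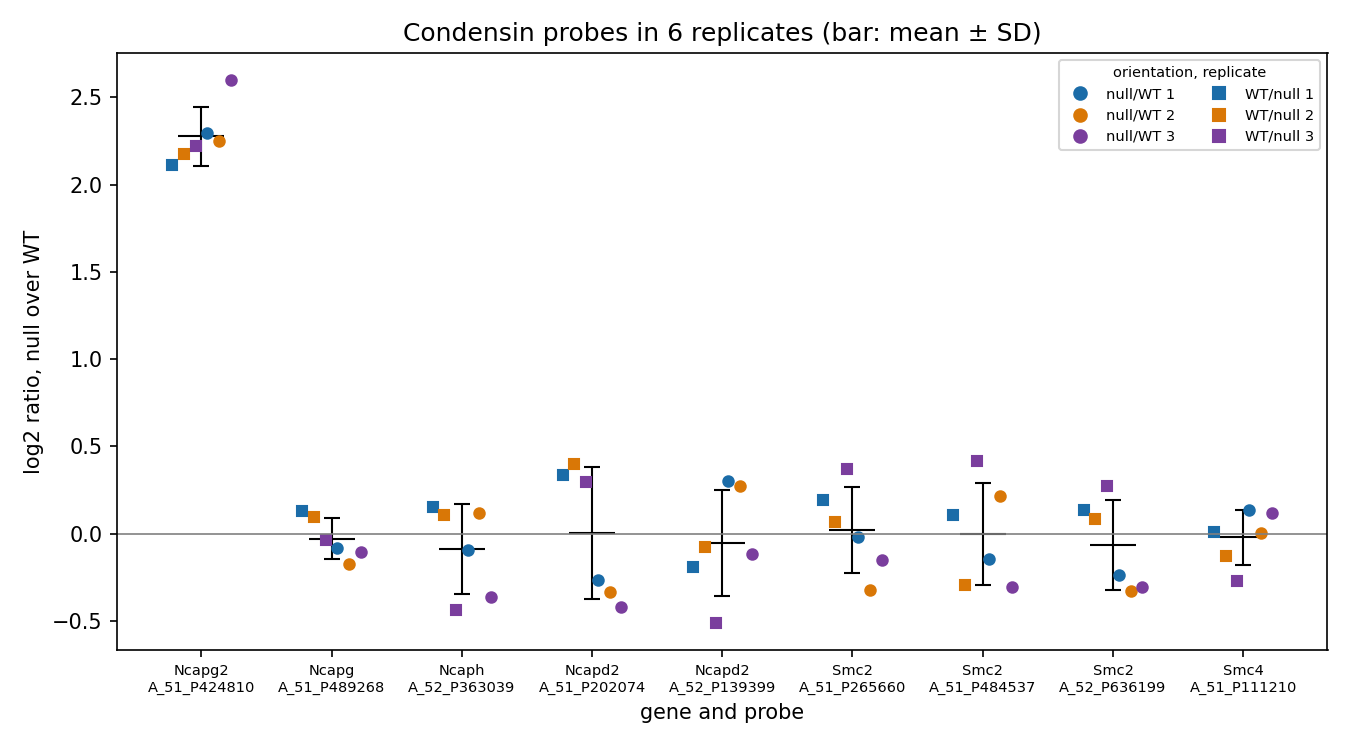
Log2 ratio of null over WT for each tested condensin probe, with 1 point per replicate (circles, null in Cy5; squares, null in Cy3; colours, replicate number) and the mean ± SD of 6 replicates in black. The 6 *Ncapg2* points lie between 2.11 and 2.60, and those of the 8 other probes between -0.51 and 0.41.

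**Figure D2:**
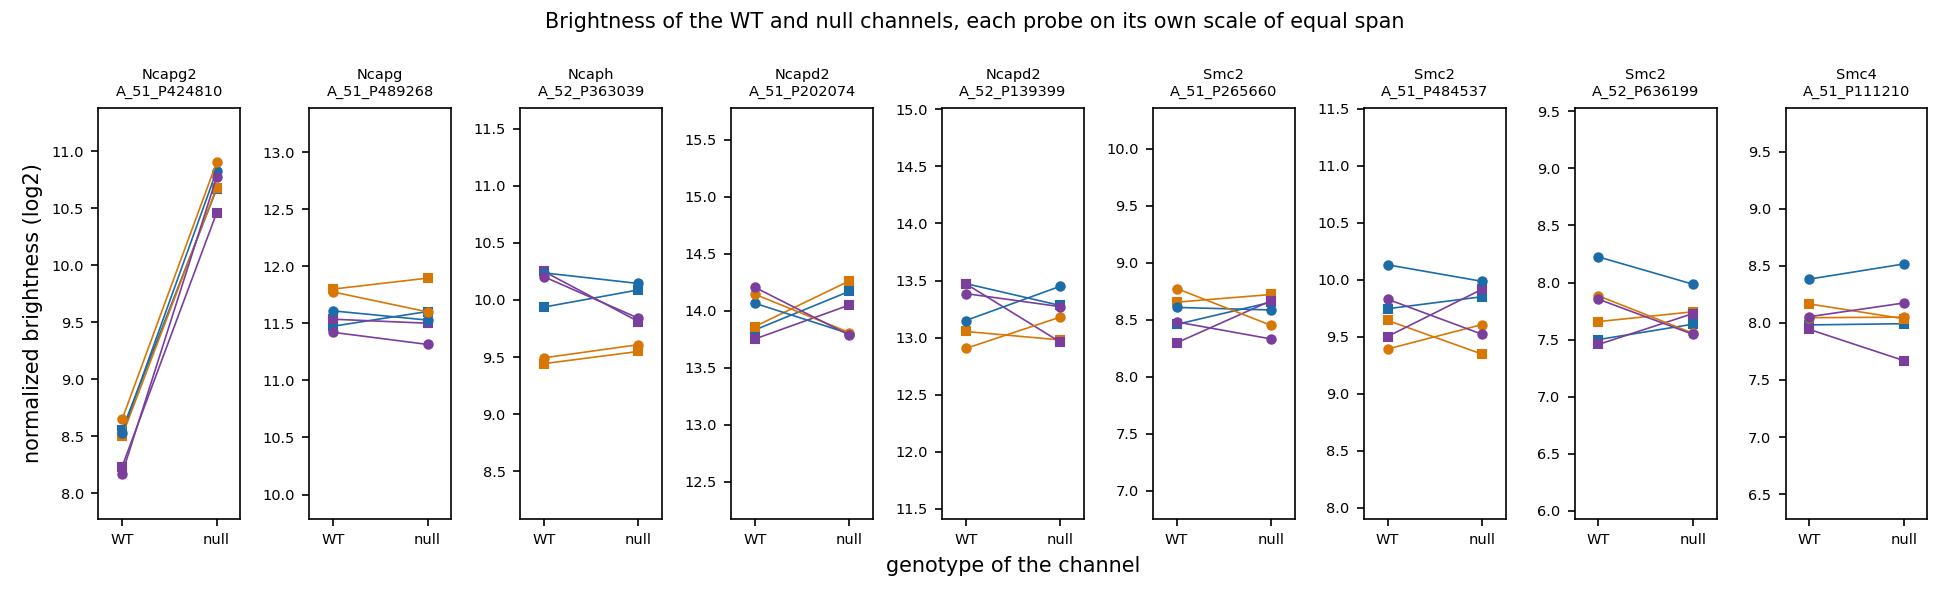
Normalized log2 brightness of the WT and the null channel in each replicate, joined by a line, with 1 panel per probe, equal spans, and colours and symbols by replicate number and orientation as in the plot of log2 ratios. Levels of different probes are not comparable. *Ncapg2* rises in 6 of 6 replicates, from 8.17 to 8.65 in WT to 10.46 to 10.90 in null, while the lines of the other 8 probes run in both directions.

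None of the other tested subunits differed in this way. Their 8 tested probes, for 5 genes, had mean log2 ratios between -0.09 and 0.02 (median -0.03), against a median of -0.01 over all tested probes. Of these 8 probes 6 were below 0 and 2 above. With median centring of each array in place of loess, all 8 were above 0 with a median of 0.16, but that centring moved the median of all tested probes to 0.14. For each of the 8 the SD over replicates exceeded the size of the mean, and the share over all tested probes was not computed. This SD also holds differences between the dye orientations. The same sign in all 6 replicates was seen for 0 of 8, against 2.92% of tested probes. The lowest *Ncapg2* replicate was 1.70 above the highest replicate of any of these probes. Of the 9 member probes, 1 (*Ncapg2*) passed the limma test of null over WT at an adjusted p under 0.05, against 0.0392% of all tested probes (9 of 22986), and nothing is read from this count, because that contrast was used in choosing the genes.

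Among the core subunits, *Smc2*, an ATPase of both complexes, had 3 tested probes. Probe A_51_P484537 gave 0.11, -0.30 and 0.41 in WT/null replicates 1, 2 and 3 and -0.15, 0.21 and -0.31 in null/WT replicates 1, 2 and 3 (mean -0.00 ± 0.29 SD). Its high and low replicates occur in both orientations and the genotypes overlap. On each slide the 2 orientations had opposite signs, and the slide means were -0.02, -0.04 and 0.05. Probes A_51_P265660 and A_52_P636199 had means of 0.02 ± 0.25 and -0.06 ± 0.26. The *Smc2* probes thus agreed on a mean near 0 with a wide spread. *Smc4*, the partner ATPase, gave 0.01, -0.13 and -0.27 in the WT/null and 0.13, 0.01 and 0.12 in the null/WT replicates (mean -0.02 ± 0.16), and its null and WT brightness overlapped (7.67 to 8.52 and 7.94 to 8.38 on the log2 scale).

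Among the condensin I subunits, *Ncapg*, the counterpart of *Ncapg2*, had the smallest SD of the 9 tested probes. It gave 0.13, 0.10 and -0.04 in the WT/null replicates and -0.08, -0.17 and -0.11 in the null/WT replicates, a mean of -0.03 ± 0.12 (SD, n = 6). Its normalized brightness was 11.57 ± 0.19 in null and 11.60 ± 0.16 in WT on the log2 scale. The counterparts therefore stood at 2.28 and -0.03 on the same arrays. Each value rests on a single tested probe, so no other probe checks it.

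*Ncaph*, the kleisin that closes the condensin I ring, varied with the slide. It gave 0.15, 0.11 and -0.44 in WT/null replicates 1, 2 and 3 and -0.09, 0.12 and -0.36 in null/WT replicates 1, 2 and 3 (mean -0.09 ± 0.26). The slide means were 0.03, 0.11 and -0.40, so both orientations were low on slide 3 only. The probe A_52_P139399 of *Ncapd2*, the other HEAT-repeat subunit of condensin I, was also lowest on slide 3, at -0.31 against 0.05 and 0.10. The other *Ncapd2* probe was lowest there by less, at -0.06 against 0.04 and 0.03. On slide 3 the cartilage gene *Col2a1* was also below 0, at -0.55, while the liver genes *Afp* and *Alb* stood at 1.45 and 0.28 and the muscle genes *Acta1*, *Myog* and *Tnnc2* at 2.29, 0.42 and 2.32. Whether RNA of other tissues had a part in the *Ncaph* values of slide 3 was not tested.

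The values of 1 *Ncapd2* and 1 *Smc2* probe differed by dye. The fit holds a term for the dye (Cy5 against Cy3) that is independent of the genotype contrast, and it passed at a limma adjusted p under 0.05 for 2 of the 9 member probes, against 13.4% of all tested probes. *Ncapd2* probe A_51_P202074 gave 0.34, 0.40 and 0.30 in the WT/null replicates and -0.27, -0.34 and -0.42 in the null/WT replicates. For this probe the dye term was -0.34 ± 0.04 (SE, limma adjusted p = 0.00424), and the mean of null over WT was 0.00 ± 0.38. The other *Ncapd2* probe leaned the opposite way, with a dye term of 0.21 ± 0.07 (limma adjusted p = 0.108, and 0.0140 with replicate numbers as pairs). *Smc2* probe A_52_P636199 had a dye term of -0.23 ± 0.04 (limma adjusted p = 0.0136), and *Smc2* probe A_51_P265660 one of -0.19 ± 0.06 (limma adjusted p = 0.0635, and 0.0273 with pairs). With pairs 4 of the 9 member probes thus passed, against 23.1% of all tested probes, while without slide 1 or slide 2 no dye term of any tested probe passed. For *Ncapg2* the dye term was 0.11 ± 0.05 and did not pass (limma adjusted p = 0.222), and its means by orientation were 2.38 for null/WT and 2.17 for WT/null.

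**Figure D3:**
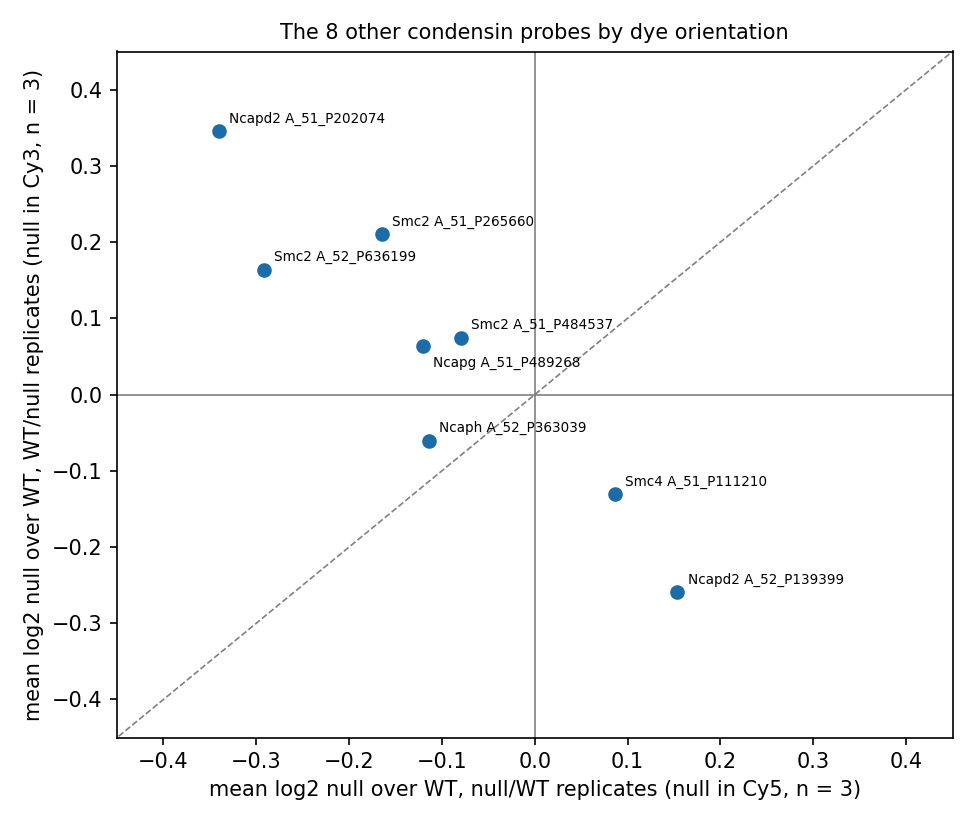
Mean log2 ratio of null over WT of the 8 other condensin probes in the 3 null/WT replicates (horizontal) and in the 3 WT/null replicates (vertical). Points on the dashed line would have equal values in both orientations. Opposite signs in the 2 orientations are seen for 7 of 8 probes, and the share over all tested probes was not computed. *Ncapg2*, at 2.38 and 2.17, lies outside the plotted range.

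Genes that act with the condensins were followed through 5 lists, of which 81 of 86 genes were tested by their brightest probe. None of the 81 passed limma's test at an adjusted p under 0.05 in either direction, 4 had an unadjusted p under 0.05, and no other tool was run. Over all 12654 tested genes 1 passed as higher, which was *Ncapg2* itself, and 984 had an unadjusted p under 0.05. The 2 that passed as lower were *Tedc1* and *Zfp386*, both neighbours of *Ncapg2* on chromosome 12. Probes without a gene name are left out of these counts, and 17785 of the 22986 tested probes had one. With every tested probe counted, 5 passed as higher and 4 as lower. The list medians ran from -0.06 to 0.00 on the log2 scale, beside 0.00 for all tested genes. Of the 81 list genes 25 were above 0 and 56 below, beside 6082 above and 6572 below among all tested genes.

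The partners of condensin on mitotic chromosomes (18 tested) had 6 genes above 0 and 12 below, with a median of -0.02. *Top2a*, the topoisomerase that untangles sister DNA, stood at -0.04 ± 0.06 (SE). *Hjurp*, the chaperone of the centromeric histone, was the highest at 0.35 ± 0.09, with an adjusted p of 0.467 by limma. *Cdk1*, the kinase that starts mitosis and phosphorylates condensin, stood at -0.08 ± 0.04, and *Mki67*, a coat protein of mitotic chromosomes, at 0.09 ± 0.06. *Mcph1*, which holds condensin II in check before mitosis, stood at -0.05 ± 0.05.

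The related SMC complexes gave similar medians. Cohesin, which holds sister chromatids together, with its loaders and regulators (18 tested) had 5 genes above 0 and 13 below (median -0.02), with *Wapl*, its release factor, at -0.09 ± 0.04, *Stag3* at -0.15 ± 0.08 and the ATPase *Smc1a* at 0.07 ± 0.04. The list of the SMC5/6 complex, which acts in DNA repair, and *Smchd1* (8 tested) had 4 above and 4 below (median 0.00), with *Smc5* at -0.09 ± 0.04, *Nsmce3* at -0.08 ± 0.04 and *Smchd1* at 0.09 ± 0.06.

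Cell cycle genes gave no shift past the threshold for single members. Genes of mitotic entry, spindle and checkpoint (20 tested) had 7 above 0 and 13 below (median -0.02), with the kinetochore genes *Cenpf* at 0.15 ± 0.06 and *Cenpe* at 0.08 ± 0.04 and the spindle kinase *Aurka* at -0.07 ± 0.04. Genes of DNA replication (17 tested) had 3 above 0 and 14 below (median -0.06), with the ribonucleotide reductase gene *Rrm1* at -0.37 ± 0.10, the helicase gene *Mcm5* at -0.10 ± 0.04 and *Tyms*, which makes thymidylate, at -0.08 ± 0.04. On slide 3 the replication median was -0.17 in WT/null and -0.21 in null/WT, the slide on which *Ncaph* was low. With median centring the medians of these 5 lists lay between 0.13 and 0.21, around the shift of 0.14 of all tested probes.

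**Figure D4:**
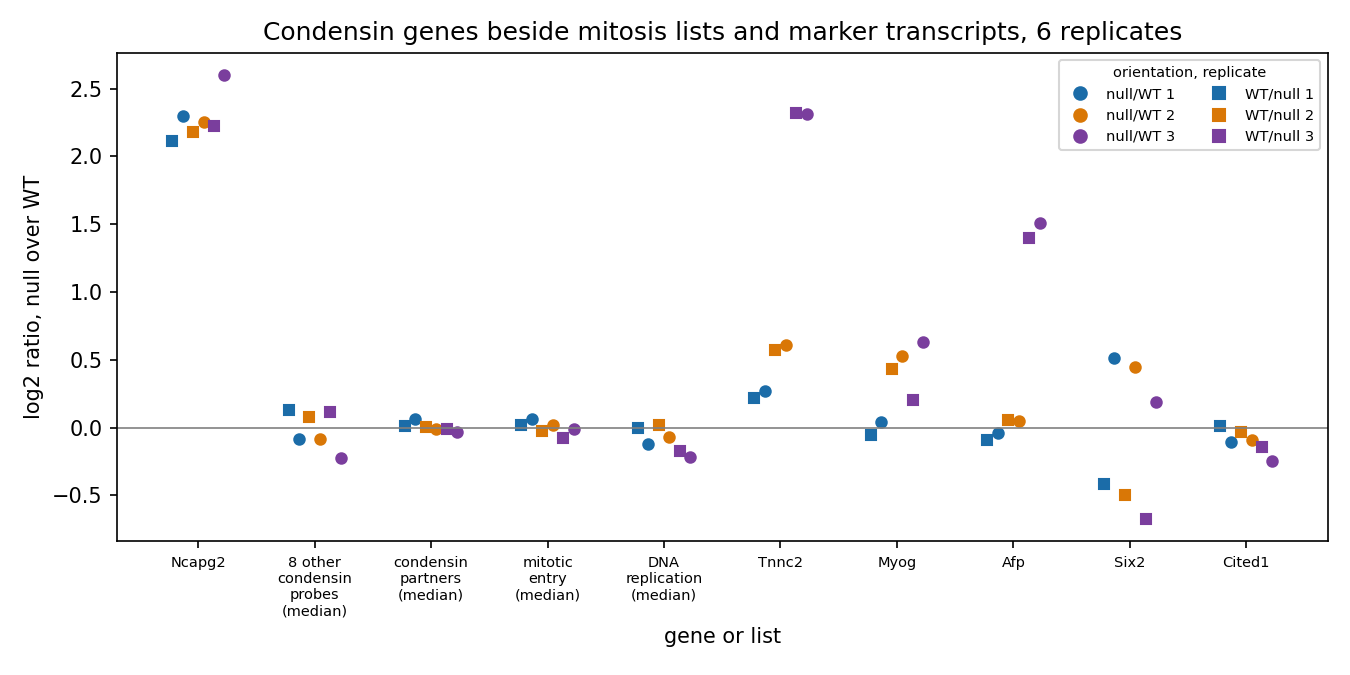
Log2 ratio of null over WT in each of 6 replicates for *Ncapg2*, for the median of the 8 other condensin probes, for the medians of 3 lists of mitosis and replication genes, and for the muscle genes *Tnnc2* and *Myog*, the liver gene *Afp* and the nephron progenitor genes *Six2* and *Cited1* (symbols by orientation, colours by replicate number). *Ncapg2* stays between 2.11 and 2.60, and *Tnnc2* ranges from 0.22 on slide 1 to 2.32 on slide 3.

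*Ncapg2* is the only measured condensin gene on chromosome 12, which also carries *Bdkrb2*. The other measured subunits lie on chromosomes 2 (*Ncaph*), 3 (*Smc4*), 4 (*Smc2*), 5 (*Ncapg*), 6 (*Ncapd2*) and 9 (*Ncapd3*). The 10 tested genes before *Ncapg2* in the RefSeq gene order and the 3 after it, which are all that were tested up to the end of that chromosome, had a median of -0.01, with 6 above 0 and 7 below. The nearest on either side were *Esyt2*, a membrane contact protein gene, at 0.07 ± 0.09 and *Cdca7l*, a MYC partner gene, at -0.13 ± 0.07 (SE). *Wdr60*, a cilium dynein gene, stood at -0.15 ± 0.09 by its brighter probe and at -0.33 ± 0.04 by A_51_P316801 (limma adjusted p = 0.0777). *Dnah11* stood at 0.10 ± 0.06 and *Sp4* at -0.01 ± 0.08, with its dimmer probe A_52_P481477 at -0.11 ± 0.05.

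Of these 13 neighbours 0 passed as higher, against 0.0218% of all tested probes, and 2 passed as lower, against 0.0174%. Counted by the brightest probe of each gene, these 2 were the only ones of 12654 genes to pass as lower. That count holds named genes only. With every tested probe counted, 4 passed as lower and 5 as higher. Unnamed probes were among both, and their positions are not known here. *Tedc1*, named after its value was seen, was lower at -1.17 ± 0.04 (limma adjusted p = 1.04e-05), with values between -1.29 and -1.09 in 6 of 6 replicates. *Zfp386* was lower by probe A_51_P152203 at -0.58 ± 0.06 (limma adjusted p = 0.0308), and its dimmer probe A_51_P152211 stood at 0.54 ± 0.06 (limma adjusted p = 0.0579). With the replicate numbers as pairs, *Tedc1* passed (limma adjusted p = 0.00162) and *Zfp386* did not (limma adjusted p = 0.374), and 4 of all tested probes did (0.0174%). By the brightest probe of each gene, the highest neighbour mean was 0.41 (*Crip1*), against 2.28 for *Ncapg2*.

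**Figure D5:**
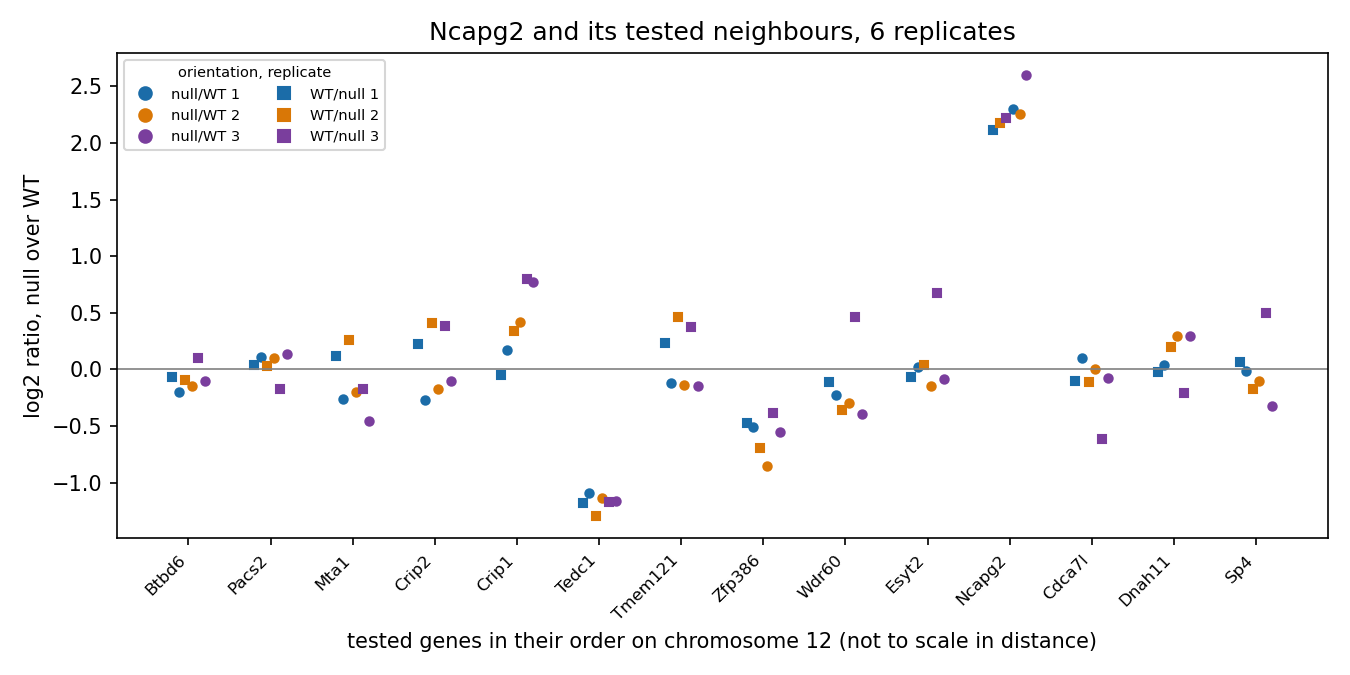
Log2 ratio of null over WT in 6 replicates for *Ncapg2* and its 13 tested neighbours in gene order on chromosome 12 (order only, not distance; symbols by orientation, colours by replicate number). *Ncapg2* (2.11 to 2.60), *Tedc1* (-1.29 to -1.09) and the brightest probe of *Zfp386* (-0.85 to -0.38) stand apart from 0 in every replicate.

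The probes whose 6 replicate values lay closest to those of *Ncapg2* by root mean square difference were few. A_52_P521937, which is unnamed here, was nearest at 0.26, with 1.74, 2.05 and 2.00 in the WT/null and 2.13, 2.13 and 2.22 in the null/WT replicates. The unnamed A_51_P186703 followed at 0.83 with a mean of 1.53 ± 0.29 (SD). The next, *Xist* at 1.22, the unnamed A_52_P362360 at 1.28 and the muscle myosin gene *Myh8* at 1.46, were near 0 on slide 1, unlike *Ncapg2*. The replicates of the other tested condensin probes, between -0.51 and 0.41, lay too far from *Ncapg2* to be among them. Nothing is read from their absence, and the targets of the unnamed probes are not known here.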

How the data were processed

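Spot and background intensity was deposited for both dyes without normalization between arrays, beside a log10 ratio (red over green). Per the file headers the software was Agilent Feature Extraction, version 10.5.1.1, whereas version 6.1 appears in the submitters' processing notes. The deposited series value table is on the log10 scale with null as numerator: its columns correlated at 0.998 to 0.999 with the scanner's ratios turned that way, with slopes of 1.00 and medians from -0.0218 to 0.00645. How its blank entries were chosen stays unknown. All 12 of its columns belonged to a sample, so 0 were left aside.

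Background was corrected with normexp (offset 50), followed by loess on the log2 ratios of each array. Control spots and 101 to 262 outlier spots per array were left out, spots of a probe were averaged, then the 2 arrays of a replicate. Brightness by channel is after Aquantile scaling and is given as its log2 or its antilog. Symbols came from accessions matched without version to RefSeq genes of GRCm38.p6 (25097 of 41174 probes). The file headers name another build (mm9), so gene positions are given as chromosome and order. Null over WT was fitted over all 22986 tested probes with limma 3.58.1 in R 4.3.3 with a dye term, and p was adjusted by Benjamini-Hochberg (threshold 0.05). The number of arrays limits precision (median SE 0.0506). The fit was tested on simulated data.

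Samples of one replicate number deviated together (correlations of 0.587, 0.517 and 0.413 for numbers 1, 2 and 3 after removal of each orientation's mean), and each number is 1 slide, so the numbers were taken as pairs in a second fit on the 3 pair means. The members, lists and tests were chosen with earlier results of these data known. Named are all member probes, up to 3 genes of each list with the smallest p, the 3 neighbours on each side of *Ncapg2* and the 5 probes most like it. *Top2a*, *Mcph1*, *Tedc1* and *Crip1* were named after their values were seen. Alternatives were the pairing, median centring, no background correction, the scanner's ratios, the value table, other filters on dim probes, the mean of a gene's probes, and leaving out replicates, slides and the array that stood apart.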

Additional observations from a re-analysis of the deposited data

How the results depend on the processing

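*Ncapg2* stayed between 2.21 and 2.62 on the log2 scale under 17 alternatives. Of these, the replicate block and the other filters on dim probes cannot move a probe's mean. They do not bear on this range or on that of the other condensin probes. It moved by more than its replicate SD with median centring (2.46), the scanner's ratios (2.62) and the series value table (2.62). Without single replicates it was 2.22 to 2.31. Each of the 8 other condensin probes stayed between -0.19 and 0.21 in these 17 settings. None of the 81 list genes passed in any setting run. Counts were less steady. The 9 probes past the threshold became 4 with replicate numbers as a block, 3 without slide 2 and 62 without slide 3. Leaving out the array that stood apart (array 1 of WT/null replicate 3) gave 15. They were 5 (without null/WT replicate 2) to 12 (without WT/null replicate 3) when single replicates were left out. The 2 neighbours of *Ncapg2* past the threshold became 1 with the replicate block, median centring, the scanner's ratios, the value table, no filter on dim probes or the mean of a gene's probes, and 1 without slide 1 or slide 2. They were 1 to 2 when single replicates were left out. The 3090 probes with a dye term past the threshold became 5317 with the replicate block and 16446 with median centring, which leaves dye trends with brightness in place, and 0 without slide 1 or slide 2. They were 532 to 3586 without single replicates and 3896 without the array that stood apart. For the other changes the cause was not tested. The replicate block ended no dye call of a condensin probe and added 2. Dim signal limits *Ncapd3*, the second *Ncapg* probe and 1 *Smc2* probe, for which no ratio is given.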

Other observations

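Among the list genes, *Rec8* and *Rrm2* had large values that changed sign with the slide, and they are given as values, named after these were seen. *Rec8*, the meiotic cohesin kleisin, stood at -3.46 and -3.87 on slide 1, 1.71 and 1.30 on slide 2 and 0.23 and 0.03 on slide 3 (WT/null, then null/WT). *Rrm2*, the small subunit of ribonucleotide reductase, stood at 1.69 and 2.19, then -1.57 and -1.11, then -0.35 and 0.05. Their means, -0.68 and 0.15, describe none of the slides.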
